A study of Mus musculus with 2 samples.

Results

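Transcripts of 8 chemokine receptor genes (Ccr1, Ccr2, Ccr6, Cxcr2, Cxcr3, Cxcr4, Cxcr6 and Cx3cr1), of 32285 genes counted, were followed through immune cells. The protocols describe the cells as coming from infected mouse spleens. The genes were chosen by name as receptors used by myeloid cells, T cells, B cells and plasma cells, with earlier results of these data known. Counts of them set beside all genes are therefore descriptions. All 8 had a row in each of 4 count tables. The mice were C57BL/6 animals with the ordinary Ptpn22 allele (PEP-WT) or with a CRISPR/Cas9-made homozygous Ptpn22 allele in which a tryptophan replaces an arginine of the encoded phosphatase PEP (PEP-619WW). The allele is germline, so every cell of the animal carries it, and both groups had been infected with LCMV-cl13, the clone of lymphocytic choriomeningitis virus used to study chronic infection. No uninfected library was analysed here. Spleens were taken at 8 days post infection from mice matched for age and sex, the cells of several animals were pooled per genotype, and live CD45+ cells, the leukocytes, were sorted for 10x Genomics single-cell RNA sequencing.

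The labels name the tissue as liver, a Jurkat cell line and tumor infiltrating cells, whereas the protocols describe spleen. In run 1 the hepatocyte markers checked (Alb, Apoa1, Ttr, Serpina1c) summed to at most 1 UMI in any cell class, and the T, B, plasma, myeloid and neutrophil marker lists were each present in their own class. The tables form 2 runs with 1 library per genotype in each. The runs are kept apart throughout and are not counted as replicates, because the sources used here do not state how they relate. The cell numbers in the methods of the study are those of run 2, and run 1 is described first here because it holds all 6 cell classes in both genotypes. Run 1 held 14821 PEP-WT and 8576 PEP-619WW barcodes with medians of 2832 and 3293 UMIs, the unique molecular identifiers that count transcripts. Run 2 held 9539 and 11029 barcodes with medians of 4837 and 3611 UMIs. The PEP-WT library of run 2 stood apart: it had 2 B cell and 28 CD8 T cell barcodes and 274 barcodes with at least 3 of 6 melanocyte markers, against 503, 394 and 27 in the PEP-619WW library. By the gates below, this PEP-WT library had 0 plasma cell barcodes, and 68.0% of its barcodes were monocytes or macrophages. Whether it came from infected spleen was not tested. Any pair of libraries shared between 19 and 49 barcode sequences, at most 0.455% of either.

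Cell classes were set by gates on other genes. CD8 T barcodes had Cd3e and Cd8b1, CD4 T barcodes had Cd3e and Cd4, B cell barcodes had Cd79a and Ms4a1, plasma cell barcodes had at least 5 UMIs of Mzb1, monocyte or macrophage barcodes had at least 5 of Lyz2, and neutrophil barcodes had at least 20 of S100a8 and S100a9 together. A barcode could enter several gates, and doublets had not been removed, so the main levels are also given for barcodes that met 1 gate only. In run 1 that left 1027 of 1439 CD8 T, 239 of 361 CD4 T, 5196 of 6937 B cell, 770 of 2361 plasma cell, 709 of 1600 monocyte or macrophage and 213 of 806 neutrophil barcodes in PEP-WT. In PEP-619WW it left 652 of 953, 179 of 261, 2146 of 3144, 761 of 1893, 436 of 1236 and 210 of 864. Barcodes in no gate made up 28.4% of PEP-WT and 28.0% of PEP-619WW in run 1, and 27.3% and 39.3% in run 2. Cells of a class without UMIs of its gate genes are left out, so a level describes a gate and not a whole cell type. A level is the sum of a gene's UMIs in a gate per 1000000 UMIs of that gate (CPM), with an exact Poisson 95% interval. With 1 library per genotype and run there is no replicate spread and no test, so ratios between genotypes compare libraries, and all intervals cover counting error alone. In a pooled CPM, fewer expressing cells and less RNA per expressing cell cannot be told apart.

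Chemokine receptors are seven-pass membrane proteins that couple to inhibitory G proteins and steer cells along gradients of chemokines. CCR1, CCR2, CXCR2 and CX3CR1 are best known for moving myeloid cells, CXCR3 and CXCR6 for placing effector lymphocytes in inflamed tissue, and CCR6 and CXCR4 for positioning B cells, with CXCR4 also retaining neutrophils and plasma cells near its ligand CXCL12. In the spleen of an LCMV-infected mouse these receptors mark cells that enter, leave or move between the red pulp, the marginal zone and the follicles.

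**Figure D1:**
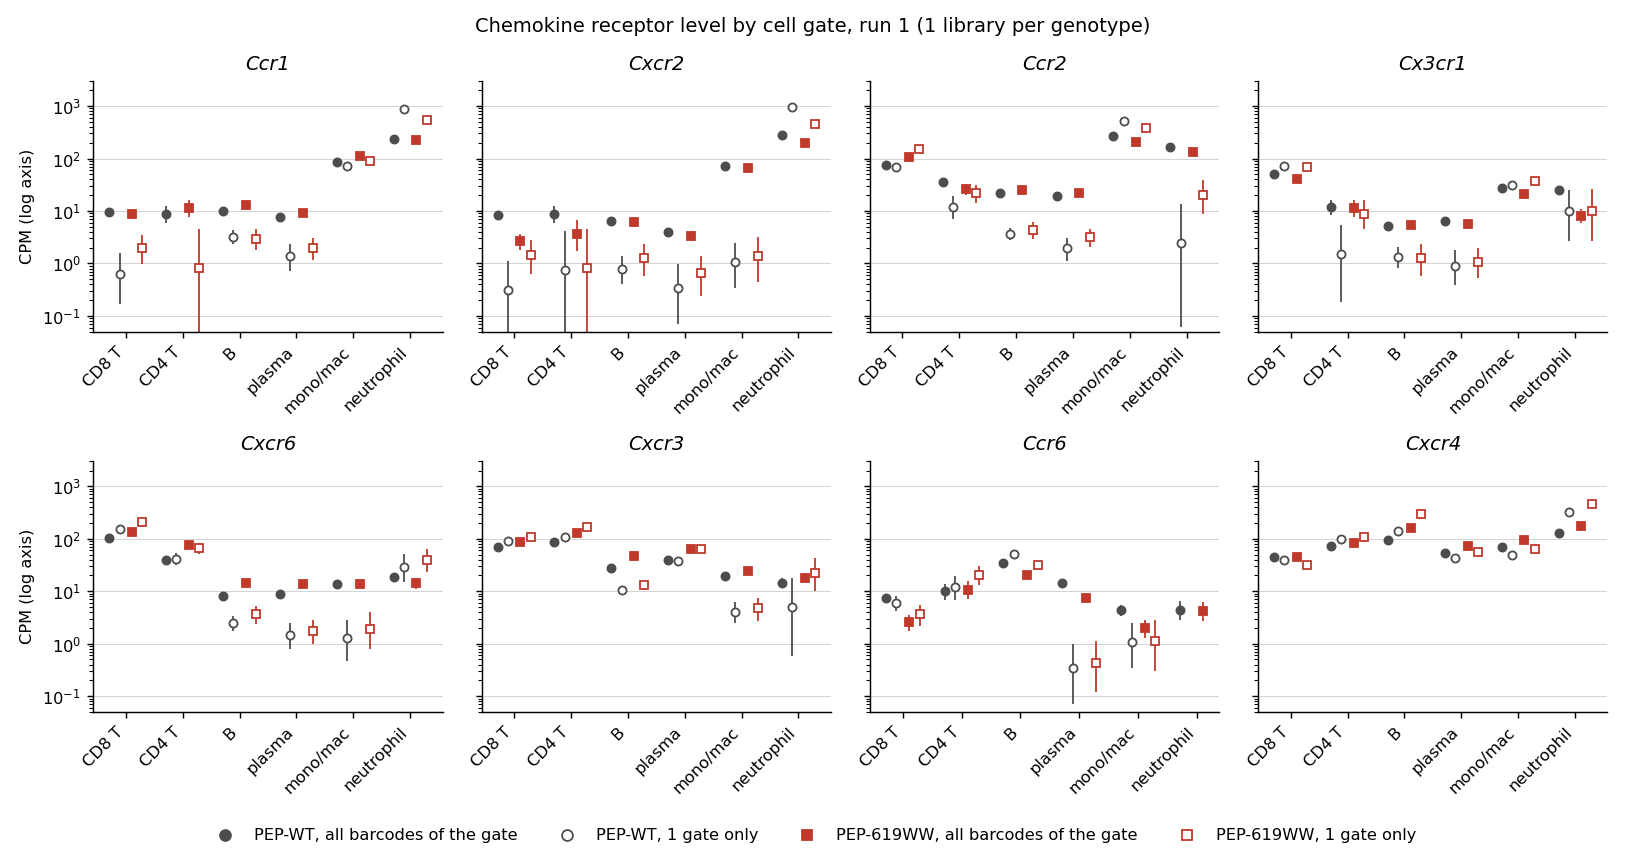
Level of each of the 8 receptors (CPM, log axis) in the 6 cell classes of run 1, PEP-WT and PEP-619WW apart. Filled points are all barcodes of a gate, open points barcodes that met 1 gate only, bars are exact 95% counting intervals, a class with 0 UMIs has no point, and some intervals run below the axis. Ccr1 and Cxcr2 peak in neutrophils, Ccr2 in monocytes or macrophages, Ccr6 in B cells, Cxcr6 and Cx3cr1 in CD8 T cells, while Cxcr3 and Cxcr4 are spread over several classes.

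Ccr1 and Cxcr2 were at least 2-fold higher in neutrophils than in any other class in both libraries of run 1. Cxcr4 also ranked highest in neutrophils there, at 1.33-fold and 1.07-fold above B cells, and is described below. The stretches just before the RefSeq start sites of Ccr1 and Cxcr2 are shown because both genes led in neutrophils by at least 2-fold while lying on different chromosomes. Both are from GRCm38.p6 and written 5′ to 3′ along the gene's own strand, with capitals for a RUNX motif (TGTGGT or its reverse complement ACCACA) or an ETS motif (AGGAAG or CTTCCT). The first lies at chr9:123968703-123968942 on the minus strand and the second at chr1:74153744-74153983 on the plus strand.
Ccr1: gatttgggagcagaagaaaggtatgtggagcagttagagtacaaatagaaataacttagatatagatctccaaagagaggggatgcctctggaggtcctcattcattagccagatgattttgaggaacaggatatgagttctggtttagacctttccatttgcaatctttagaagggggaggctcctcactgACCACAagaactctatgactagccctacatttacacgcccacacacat
Cxcr2: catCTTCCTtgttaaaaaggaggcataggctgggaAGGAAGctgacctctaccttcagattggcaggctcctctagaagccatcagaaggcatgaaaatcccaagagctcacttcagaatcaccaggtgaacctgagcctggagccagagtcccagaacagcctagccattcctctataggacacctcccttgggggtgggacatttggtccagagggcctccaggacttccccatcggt
The Ccr1 window held 1 RUNX match and the Cxcr2 window 2 ETS matches. Of 32851 windows of 240 bases before RefSeq starts, 13.6% held the RUNX letters and 28.4% the ETS letters on either strand, and of the 8 receptors 3 had a window with each motif (Ccr1, Cxcr3 and Cx3cr1 for RUNX, and Ccr6, Cxcr2 and Cxcr3 for ETS). The Cxcr4 window held 0 matches of either motif and is not shown. A match is a run of letters and was not tested as a binding site.

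Ccr1, a receptor for CCL3, CCL5 and related chemokines, is on chromosome 9 (123962124 to 123968692, minus strand, GRCm38). Its level in neutrophil barcodes of run 1 was 235 CPM (222 to 248) in PEP-WT and 225 CPM (213 to 238) in PEP-619WW. Monocyte or macrophage barcodes followed at 87.2 and 111 CPM, in both libraries below neutrophils, and at 70.5 and 88.4 CPM in 1 gate only. Among neutrophil barcodes in no other gate, Ccr1 stood at 864 CPM (776 to 959) in PEP-WT and 534 CPM (465 to 611) in PEP-619WW, which was 12.3-fold and 6.04-fold above the monocyte or macrophage level. Erythroid barcodes in no gate, which show what free RNA can give, held 0.876 CPM of Ccr1 in 544 PEP-WT barcodes and 0 UMIs in 25 PEP-619WW barcodes.

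Cxcr2, the receptor for CXCL1, CXCL2 and other neutrophil chemoattractants, is on chromosome 1 (74153989 to 74161246, plus strand). Neutrophil barcodes of run 1 held 283 CPM (269 to 297) in PEP-WT and 197 CPM (185 to 209) in PEP-619WW, and 70.1% and 51.3% of them had a UMI of it. Thinned to 1000 UMIs per barcode the shares were 40.7% and 24.4%. Cxcr2 was thus lower in the PEP-619WW library beyond counting error, with a log2 ratio of PEP-619WW over PEP-WT of -0.52. In neutrophil barcodes of 1 gate only the levels were 963 CPM (870 to 1063) and 454 CPM (390 to 525), a log2 ratio of -1.08 (-1.35 to -0.83). Monocyte or macrophage barcodes of 1 gate only held 1.07 and 1.39 CPM, so nearly all Cxcr2 of that gate lay in barcodes that also passed another one.

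The neutrophil gate overlapped the monocyte or macrophage gate in 68.7% of its PEP-WT members and 65.0% of its PEP-619WW members. Lyz2 is known to be transcribed by neutrophils too. A stricter neutrophil class, added after seeing the data, required at least 2 of 5 neutrophil markers and no T, B or plasma gate, and left 551 and 516 barcodes. In it Ccr1 was level between the libraries at 408 and 415 CPM. Cxcr2 remained lower in the PEP-619WW library at 411 CPM against 528 CPM, a log2 ratio of -0.36 (-0.49 to -0.24). Cxcr4, which holds neutrophils in the bone marrow, was higher there at 272 CPM against 191 CPM, a log2 ratio of 0.51 (0.33 to 0.69), and was found in 58.1% against 45.4% of the barcodes. Over the whole neutrophil gate at matched depth the Cxcr4 gap was not seen: thinned to 1000 UMIs, a UMI was found in 18.9% of barcodes in the PEP-WT library and 19.6% in the other, with overlapping intervals, and the log2 ratio was 0.07 against 0.44 unthinned. Monocyte markers summed to 176 CPM in these PEP-619WW barcodes and to 344 CPM in the PEP-WT ones, and their part in the ratios was not tested.

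Neutrophil barcodes also differed by maturity genes. With Ltf, Ngp and Camp, proteins of the secondary granules made by immature neutrophils, summing to at least 5 UMIs (186 PEP-WT and 365 PEP-619WW barcodes), Cxcr2 was 222 and 216 CPM. Below that limit (620 and 499 barcodes) it was 305 CPM in PEP-WT and 178 CPM in PEP-619WW. In this split the Cxcr2 gap was seen in the barcodes with few granule transcripts. Cxcr4 was higher in the PEP-619WW library on both sides, at 165 against 99.4 CPM and at 183 against 139 CPM. The split used all barcodes of the neutrophil gate. Of these, 86.7% in PEP-WT and 77.9% in PEP-619WW had at least 2 of 5 neutrophil markers. Also in the plasma cell gate were 7.32% and 18.1%. The part of other cells in these gaps was not tested.

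Ccr1 and Cxcr2 were often found in the same barcodes. Among neutrophil barcodes of 1 gate thinned to 1000 UMIs, Cxcr2 was seen in 68.5% of PEP-WT barcodes with Ccr1 and in 38 of the 76 barcodes without. In PEP-619WW the shares were 50% and 22.3%. Cxcr2 was seen in 47.1% of 51 PEP-WT barcodes with Cxcr4 and 66.2% of 136 without, and in PEP-619WW in 34.5% of 55 and 29.7% of 111, with overlapping intervals in each library.

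Ccr2, the CCL2 receptor that brings inflammatory monocytes out of the bone marrow, is on chromosome 9 (124101950 to 124113557, plus strand), 133 kb from Ccr1. Monocyte or macrophage barcodes of run 1 held 268 CPM (260 to 277) in PEP-WT and 205 CPM (197 to 213) in PEP-619WW. In barcodes of 1 gate only these were 520 CPM (499 to 541) and 388 CPM (368 to 409), a log2 ratio of -0.42 (-0.52 to -0.32). Ccr2 was thus lower in the PEP-619WW myeloid class both ways, but the make-up of the class differed. At least 2 of 5 monocyte or macrophage markers were found in 62.4% (PEP-WT) and 46.8% (PEP-619WW) of all members. Neutrophil markers summed to 2775 and 5778 CPM there, and to 113 and 108 CPM in 1 gate only. Also in 1 gate only, monocyte or macrophage markers summed to 1016 and 923 CPM and those of plasma cells to 286 and 455 CPM. The part of other cells in the Ccr2 gap was not tested.

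The Ccr2 gap in myeloid cells was found in 1 of 2 subsets compared. Barcodes with Ly6c2, the marker of inflammatory monocytes, and without the macrophage gene C1qa held 675 CPM in PEP-WT (452 barcodes) and 474 CPM in PEP-619WW (246 barcodes). Barcodes with both genes held 320 and 330 CPM. With C1qa and no Ly6c2, 40 PEP-WT barcodes held 76.1 CPM.

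In CD8 T cells Ccr2 went the other way. All barcodes of the gate held 75.8 CPM (71.3 to 80.5) in PEP-WT and 109 CPM (103 to 115) in PEP-619WW. In barcodes of 1 gate only the levels were 69.3 CPM (63 to 76) and 154 CPM (144 to 165), 2.22-fold higher in the PEP-619WW library, with a log2 ratio of 1.15 (0.98 to 1.32). Of all genes with at least 20 UMIs in these CD8 T barcodes, 1.60% were at least 2-fold higher in PEP-619WW. Shares of CD8 T barcodes with a Ccr2 UMI were 29.6% and 51.3%, and after thinning 7.93% and 12.8%.

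Ccr2 in CD8 T cells was found with granzymes, the killing enzymes of effector cells. CD8 T barcodes of 1 gate with Gzma, Gzmb or Gzmk held 86.9 CPM (78.8 to 95.5) in PEP-WT (710 barcodes) and 165 CPM (154 to 176) in PEP-619WW (582 barcodes). Those with none of the 3 genes held 13.1 and 27.9 CPM (317 and 70 barcodes). PEP-WT erythroid barcodes held 5.25 CPM of Ccr2. The 25 PEP-619WW erythroid barcodes held 0 UMIs, with an upper bound of 40.8 CPM, which is above the 27.9 CPM. Granzyme barcodes made up more of the PEP-619WW class, and within that subset the Ccr2 intervals of the 2 libraries did not overlap. The subsets were cut without thinning. Barcodes of the CD8 T gate had medians of 6038 UMIs in PEP-WT and 8660 in PEP-619WW, so the granzyme share can differ with depth.

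**Figure D2:**
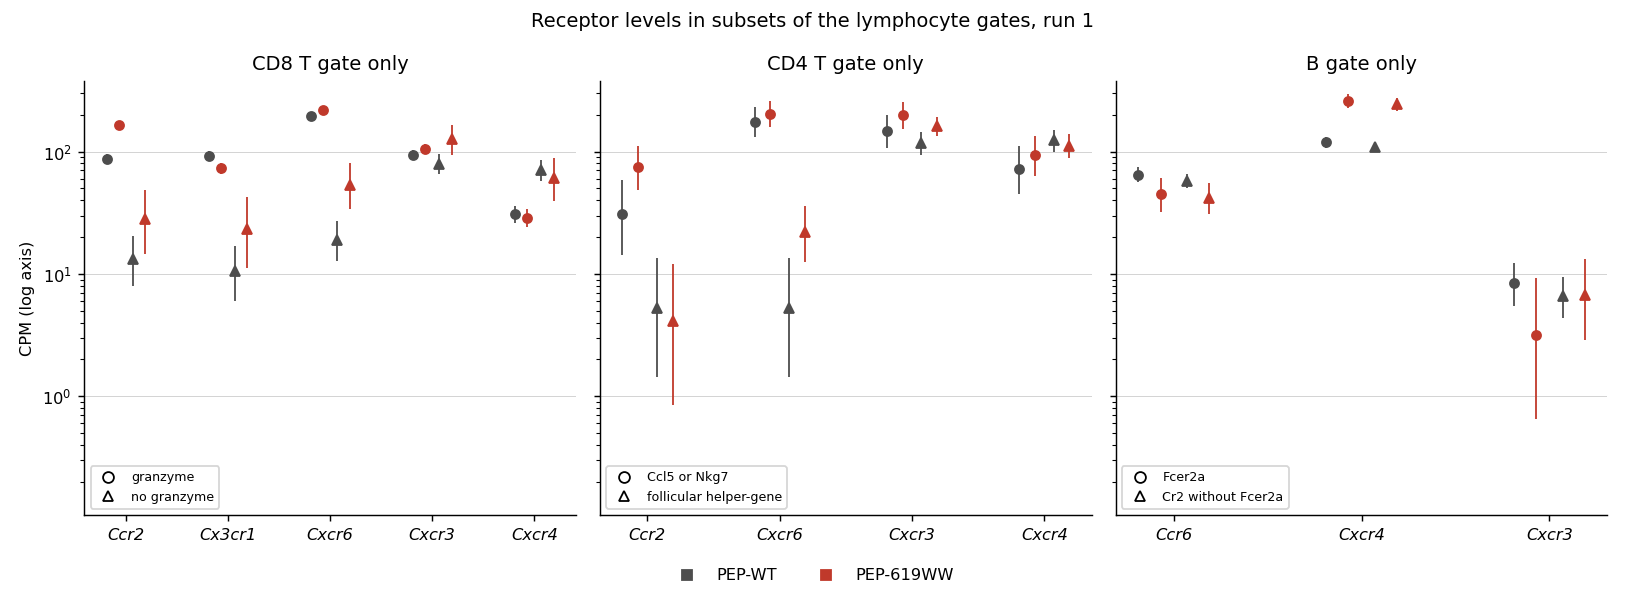
Levels (CPM, log axis) of receptors in subsets of the run 1 T and B cell classes, barcodes of 1 gate only, PEP-WT and PEP-619WW apart, with exact 95% counting intervals (granzyme: Gzma, Gzmb or Gzmk). Among granzyme CD8 T barcodes Ccr2 is 86.9 CPM in PEP-WT and 165 CPM in PEP-619WW, against 13.1 and 27.9 CPM in the barcodes with no granzyme.

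In CD4 T cells the Ccr2 values depended on the barcodes taken. All barcodes gave 36.0 CPM in PEP-WT and 25.8 CPM in PEP-619WW, a log2 ratio of -0.48 (-0.92 to -0.05), and barcodes of 1 gate only gave 12.05 and 21.9 CPM, a log2 ratio of 0.86 (-0.08 to 1.85). No direction is given for Ccr2 in CD4 T cells. CD4 T subsets were cut in turn. Barcodes with Foxp3 were set apart first, then those with follicular helper genes, then those of the rest with Ccl5 or Nkg7. Within the class Ccr2 lay with this Ccl5 or Nkg7 subset, at 31.0 and 75.3 CPM in 43 and 49 barcodes. It was 5.25 and 4.12 CPM in the subset with follicular helper genes.

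**Figure D3:**
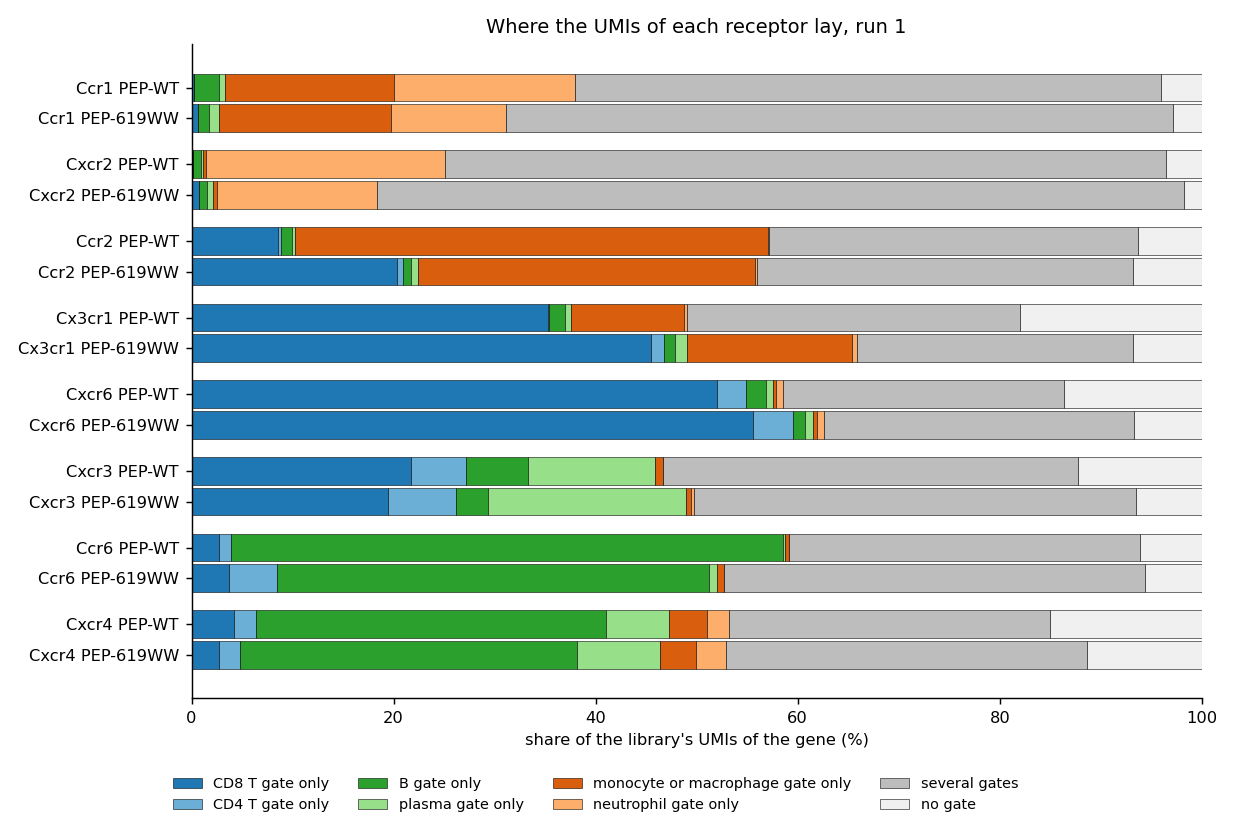
Share of all UMIs of each receptor in a run 1 library (percent) by where the barcodes lay: in 1 gate only, in several gates, or in no gate. For Ccr2, barcodes in the CD8 T gate only held 8.5% of the UMIs in PEP-WT and 20.3% in PEP-619WW, and those in the monocyte or macrophage gate only 46.9% and 33.3%.

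Cx3cr1, the receptor for fractalkine found on patrolling monocytes and on terminal effector T cells, is on chromosome 9 (119901616 to 120069879, minus strand), where Gorasp1, Csrnp1 and Xirp1 overlap it on the same strand. Its reads could be split with those genes by the counting, and its level is uncertain to that extent. It was highest in CD8 T barcodes of run 1, at 51.8 CPM in PEP-WT and 40.7 CPM in PEP-619WW. Barcodes of 1 gate only gave 72.2 and 68.8 CPM, a log2 ratio of -0.07, and the CD8 T level was 2.30-fold and 1.81-fold above that of monocytes or macrophages.

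Cx3cr1 in the myeloid gates turned with the barcodes taken. Monocyte or macrophage barcodes held 27.9 CPM in PEP-WT and 20.9 CPM in PEP-619WW, but 31.4 and 38.1 CPM in 1 gate only, where the interval of the ratio included 0. In neutrophil barcodes it was 24.8 CPM against 8.04 CPM, a log2 ratio of -1.63, but in 1 gate only 9.82 against 10.04 CPM from 4 UMIs each. In the stricter neutrophil class it was 30.3 against 3.17 CPM, from 3.81% and 0.58% of the barcodes, so few barcodes carried it.

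Cxcr6, the CXCL16 receptor of tissue-resident and effector T cells, is on chromosome 9 (123806475 to 123811760, plus strand), 150 kb from Ccr1, with Fyco1 overlapping on the opposite strand. CD8 T barcodes of run 1 held 104 CPM (99 to 110) in PEP-WT and 137 CPM (131 to 144) in PEP-619WW. CD4 T barcodes held 40.2 and 75.6 CPM. In 1 gate only, CD8 T levels were 153 CPM (144 to 163) and 207 CPM (195 to 219), a log2 ratio of 0.43 (0.31 to 0.56), and CD4 T levels 41.4 and 65.6 CPM, a log2 ratio of 0.66 (0.15 to 1.18). Cxcr6 was higher in the PEP-619WW library in both T cell classes. Thinned to 1000 UMIs per barcode the log2 ratio was 0.56 in CD8 T cells and 1.63 in CD4 T cells, the latter from 10 of 358 and 22 of 261 barcodes with a UMI (2.79% and 8.43%).

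Cxcr6 followed the effector subsets closely. In granzyme CD8 T barcodes it stood at 195 CPM in PEP-WT and 220 CPM in PEP-619WW, against 19.0 and 53.5 CPM in those with no granzyme. CD4 T barcodes with Ccl5 or Nkg7, and with neither Foxp3 nor a follicular helper gene, held 176 and 204 CPM. Those with follicular helper genes (Cxcr5, Bcl6, Sostdc1 or Izumo1r) and no Foxp3 held 5.25 and 22.0 CPM. Within these effector subsets the levels of the 2 libraries lay closer together than over the whole of either T cell class. Among thinned CD8 T barcodes of 1 gate only, Cxcr6 was seen in 23.5% with Ccr2 and 11.5% without in PEP-WT. In PEP-619WW the shares were 21.7% and 19.1%. Over the whole CD8 T gate, 11.4% (PEP-WT) and 16.1% (PEP-619WW) of thinned barcodes had a Cxcr6 UMI.

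Cxcr3, the receptor for the interferon-induced chemokines CXCL9 and CXCL10, is on chromosome X (101731535 to 101734269, minus strand). It was spread over T cells and plasma cells, with no class 2-fold above the next in either library. CD4 T barcodes of run 1 held 87.1 CPM in PEP-WT and 126 CPM in PEP-619WW, CD8 T barcodes 69.9 and 85.1 CPM, plasma cell barcodes 39.8 and 63.4 CPM and B cell barcodes 28.0 and 46.9 CPM. All 4 levels were higher in PEP-619WW, with log2 ratios of 0.53, 0.28, 0.67 and 0.75. In 1 gate only the CD4 T level was 109 and 166 CPM and the CD8 T level 90.2 and 107 CPM.

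The plasma cell level of Cxcr3 kept its gap in barcodes of 1 gate only, at 38.2 CPM (34.2 to 42.5) against 64.6 CPM (59.5 to 70), a log2 ratio of 0.76 (0.56 to 0.96). In B cell barcodes of 1 gate only Cxcr3 was 10.7 and 13.1 CPM, a log2 ratio of 0.29, so most B cell UMIs of Cxcr3 lay in barcodes that were also in another gate. Among plasma cell barcodes, those with the division gene Mki67 held 40.3 and 73.1 CPM and those without held 34.9 and 46.8 CPM. B cell barcodes with Fcer2a, a follicular B cell gene, held 8.39 and 3.18 CPM of Cxcr3.

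Ccr6, the CCL20 receptor that helps B cells move within lymphoid tissue, is on chromosome 17 (8236043 to 8257141, plus strand). B cell barcodes of run 1 held 34.8 CPM in PEP-WT and 20.6 CPM in PEP-619WW, a log2 ratio of -0.76 (-0.92 to -0.60). In 1 gate only they held 50.6 CPM (47.1 to 54.3) and 31.7 CPM (27.7 to 36.1), a log2 ratio of -0.67 (-0.89 to -0.46). Ccr6 was thus lower in the PEP-619WW B cells both ways, and in 1 gate only its B cell level was 4.20-fold and 1.57-fold above that of CD4 T cells, the next class. With Fcer2a it was 64.5 CPM in PEP-WT (971 barcodes) and 44.6 CPM in PEP-619WW (271 barcodes), and with Cr2 and no Fcer2a 57.5 and 41.7 CPM (1327 and 286 barcodes). Most of the 5196 and 2146 B cell barcodes of 1 gate were in neither subset and are not described apart.

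Cxcr4, the CXCL12 receptor, is on chromosome 1 (128588199 to 128592293, minus strand) and was found in all 6 classes. All barcodes of run 1 gave 128 CPM in PEP-WT and 174 CPM in PEP-619WW for neutrophils, 96.5 and 163 CPM for B cells, 71.7 and 83.4 CPM for CD4 T cells, 70.3 and 93.9 CPM for monocytes or macrophages, 53.2 and 72.5 CPM for plasma cells and 45.1 and 44.96 CPM for CD8 T cells. PEP-WT erythroid barcodes held 20.1 CPM of it, below every class, and the 25 PEP-619WW ones held 6 UMIs or 66.4 CPM, above the CD8 T level. In barcodes of 1 gate only neutrophils led by 2.31-fold and 1.59-fold over B cells, and plasma cells and monocytes or macrophages did not differ beyond their intervals. In all PEP-619WW barcodes neutrophils were 1.07-fold above B cells, within the intervals, and after thinning B cells led.

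In run 1 the Cxcr4 gap was widest in B cells. In 1 gate only, B cell barcodes held 140.0 CPM (134 to 146) in PEP-WT and 295 CPM (282 to 307) in PEP-619WW, 2.10-fold higher, with a log2 ratio of 1.07 (0.99 to 1.16). Of all genes in these B cell barcodes 1.94% were at least 2-fold higher. The gap was present in both B cell subsets compared, at 119 and 259.9 CPM with Fcer2a and 108 and 243 CPM with Cr2 and no Fcer2a. These subsets leave out most B cell barcodes of 1 gate. Shares with a UMI were 32.7% and 55.4% over the gate, and 13.0% and 22.1% after thinning. In CD8 T barcodes of 1 gate only Cxcr4 was 40.2 and 31.1 CPM, a log2 ratio of -0.37, and there it was higher with no granzyme (70.2 and 60.5 CPM) than with granzymes (30.8 and 28.6 CPM).

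**Figure D4:**
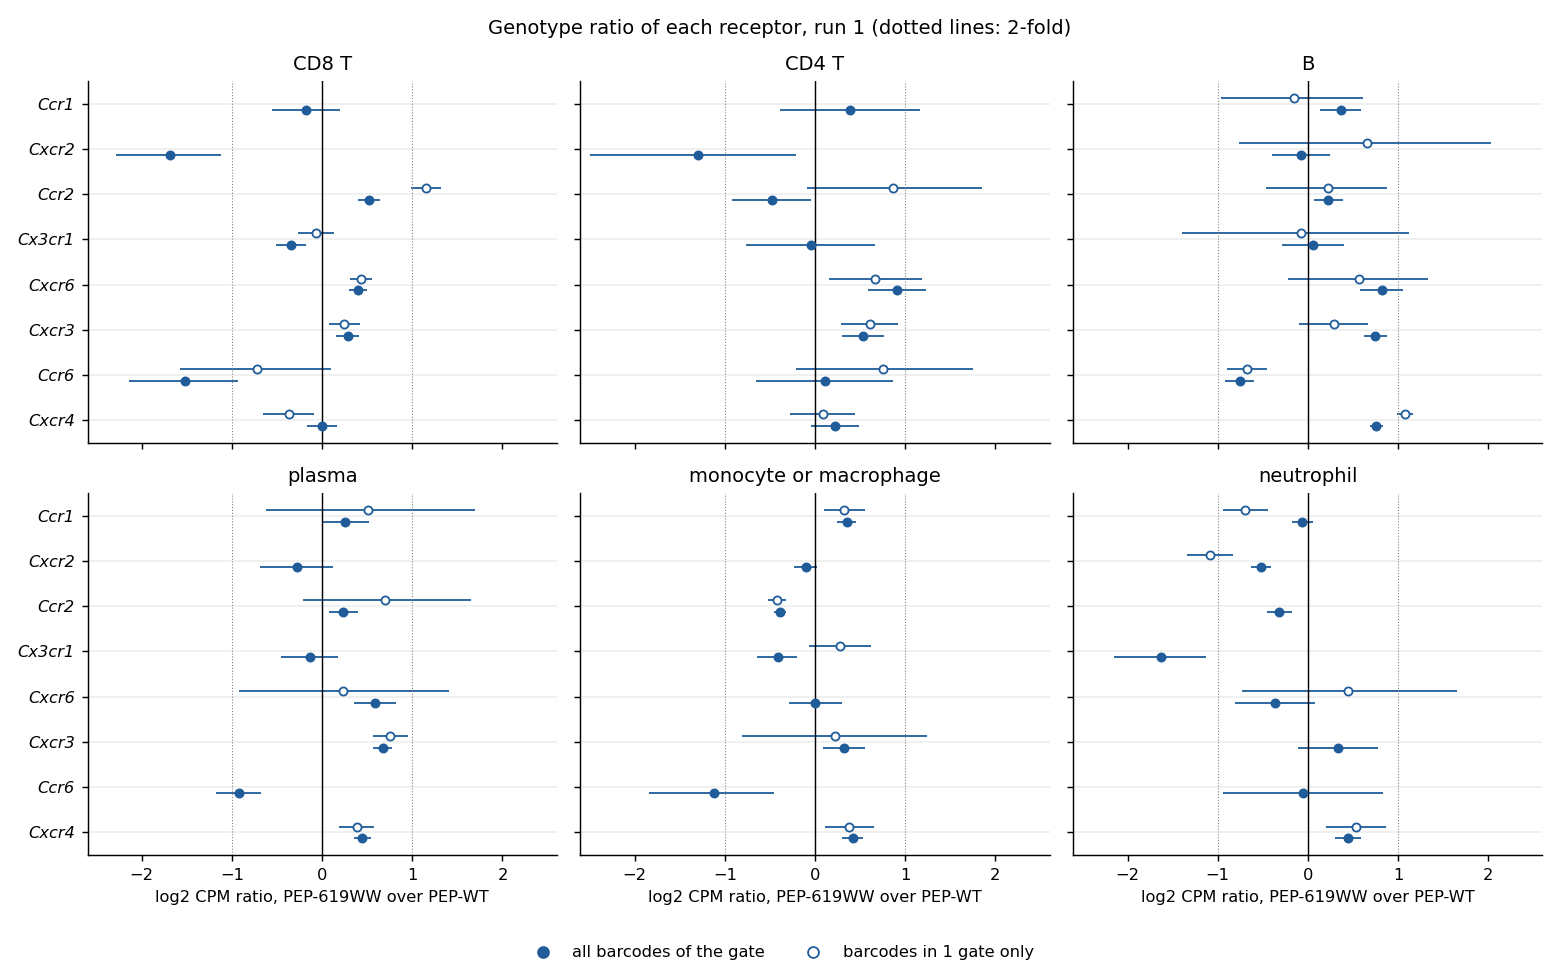
Log2 ratio of PEP-619WW over PEP-WT for each receptor and class of run 1, for pairs with at least 20 UMIs; filled points are all barcodes, open points barcodes of 1 gate only, and bars are exact 95% counting intervals. Open points lie beyond 1 for Ccr2 in CD8 T cells (1.15) and Cxcr4 in B cells (1.07), and below -1 for Cxcr2 in neutrophils (-1.08).

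Counted over all 48 pairs of receptor and class in run 1, 0 were at least 2-fold higher in PEP-619WW and 5 were at least 2-fold lower. The lower ones were Ccr6 (-1.52) and Cxcr2 (-1.68) in CD8 T cells, Cxcr2 in CD4 T cells (-1.29), Ccr6 in monocytes or macrophages (-1.12) and Cx3cr1 in neutrophils (-1.63), in no case the leading class of that receptor. Over all genes with at least 20 UMIs the share at least 2-fold lower was 2.81% in CD8 T, 2.56% in CD4 T, 1.95% in B, 2.01% in plasma, 2.59% in monocyte or macrophage and 3.70% in neutrophil barcodes. The share at least 2-fold higher was 1.91%, 2.35%, 2.55%, 2.14%, 1.85% and 1.85% in the same order. In barcodes of 1 gate only 33 of the pairs kept 20 UMIs, of which 2 were at least 2-fold higher (Ccr2 in CD8 T cells and Cxcr4 in B cells) and 1 lower (Cxcr2 in neutrophils). Of the 5 lower pairs 4 were no longer counted there because they fell under 20 UMIs, and Ccr6 in CD8 T cells was -0.72. Of all genes in these barcodes, 1.60% were at least 2-fold higher in CD8 T, 2.88% in CD4 T, 1.94% in B, 2.28% in plasma, 2.13% in monocyte or macrophage and 9.46% in neutrophil barcodes, and 2.18%, 2.66%, 1.64%, 1.38%, 1.80% and 4.61% were at least 2-fold lower. The median log2 ratio of all genes was -0.11 in neutrophil barcodes, between -0.07 and 0.02 in the other classes, and the median of the 8 receptors was -0.09 in CD8 T, 0.16 in CD4 T, 0.29 in B, 0.25 in plasma, -0.05 in monocyte or macrophage and -0.19 in neutrophil barcodes.

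Receptors with a class at least 2-fold above the next numbered 4 of 8 in PEP-WT of run 1 (Ccr1, Ccr6, Cxcr2, Cxcr6), where 9.96% of all genes had one, and 2 of 8 in PEP-619WW (Ccr1, Cxcr2), where 10.2% had one. In barcodes of 1 gate only there were 7 (all but Cxcr3) and 4 (Ccr1, Ccr2, Cxcr2, Cxcr6), beside 21.8% and 20.1% of all genes. The libraries were not equally free of other cells: in barcodes of 1 gate only, erythroid markers summed to 1341 to 4357 CPM in PEP-WT and 37.2 to 986 CPM in PEP-619WW over the 6 classes. Neutrophil barcodes of 1 gate only held 1252 CPM of plasma cell, 605 CPM of CD8 T cell and 434 CPM of B cell markers in PEP-619WW, against 260, 368 and 66.3 CPM in PEP-WT. Their part in the receptor values was not tested.

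In run 2 the same receptors were compared in monocytes or macrophages (6488 and 4919 barcodes) and neutrophils (590 and 1071 barcodes), the classes with at least 50 barcodes in both libraries. The ratios compare 2 libraries, and genotype and other differences between them, which may include tissue, cannot be told apart. In monocyte or macrophage barcodes, melanocyte markers summed to 151 CPM in PEP-WT and 18.3 CPM in PEP-619WW, and erythroid markers to 291 and 4.26 CPM. The markers of CD8 T cells went the other way, at 9.96 and 204 CPM, as did those of CD4 T cells (9.75 and 210.4 CPM), natural killer cells (0.73 and 19.7 CPM) and plasma cells (136 and 271 CPM). Those of B cells did not, at 31.6 and 28.1 CPM. In neutrophil barcodes CD8 T markers summed to 44.1 and 222 CPM. The part of these cells in the receptor ratios was not tested. Ccr2 stood at 145 CPM in PEP-WT and 1030 CPM in PEP-619WW in monocytes or macrophages, a log2 ratio of 2.83. In neutrophils Ccr2 was 123 and 513 CPM, but 14.1 and 68.2 CPM (10 and 100 UMIs) in 1 gate only, so most of it lay in barcodes that also passed another gate. Ccr1 was 136 and 315 CPM in monocytes or macrophages and 582 and 1008 CPM in neutrophils. Cxcr2 was 274 and 549.97 CPM in neutrophils. In neutrophils of 1 gate only Ccr1 was 1082 and 1519.8 CPM and Cxcr2 556 and 980.5 CPM. The ratios were opposite in sign to those of run 1 for Ccr2 in monocytes or macrophages and for Cxcr2 in neutrophils, over all barcodes and in 1 gate only. For Ccr1 in neutrophils of run 1 the log2 ratio was -0.06 (-0.18 to 0.05) over all barcodes, -0.69 (-0.95 to -0.44) in 1 gate only and 0.03 in the stricter class. For Ccr2 in neutrophils of run 1 it was -0.32 over all barcodes, with 1 and 8 UMIs left in 1 gate only (a ratio above 0), and no direction is given.

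Over all barcodes of a gate, Cxcr4 and Cxcr3 had ratios above 0 in both classes of both runs. In run 2 every receptor with enough UMIs had a ratio above 0, so this does not set them apart there. The run 1 neutrophil ratio of Cxcr4 was 0.07 after thinning. In run 2 Cxcr4 was 33.1 and 83.9 CPM in monocytes or macrophages and 128 and 286 CPM in neutrophils, log2 ratios of 1.34 and 1.16. In the stricter neutrophil class (285 and 601 barcodes) it was 144 and 313 CPM, a log2 ratio of 1.13, beside 0.51 in run 1. Of the 15 receptor and class pairs with enough UMIs, 13 were at least 2-fold higher in PEP-619WW and 0 lower, where 14.0% of all genes were higher and 10.4% lower in monocytes or macrophages, and 11.6% and 6.74% in neutrophils. The 13 include Cxcr3 and Cxcr6 in both classes and Ccr6 in monocytes or macrophages, receptors known from lymphocytes. T cell markers were higher in both classes too, but B cell markers were not higher in monocytes or macrophages (31.6 and 28.1 CPM). Some PEP-WT levels were near the floor: Ccr6 in monocytes or macrophages was 0.016 CPM, and in neutrophils Cxcr3 was 0.959 CPM and Cxcr6 1.44 CPM. In barcodes of 1 gate only, 11 of the pairs kept 20 UMIs. Among these, Cxcr2 in neutrophils fell under 2-fold, to a log2 ratio of 0.82. In the stricter neutrophil class the Cxcr2 ratio was 0.96. The lymphocyte classes of run 2 were large enough in PEP-619WW only. There Cxcr6 was 113 CPM in CD8 T and 74.2 CPM in CD4 T cells, Cxcr3 61.0 and 77.8 CPM, Ccr6 in B cells 35.6 CPM and Cxcr4 in B cells 155 CPM, while Ccr2 was 292 CPM in CD8 T and 457 CPM in CD4 T cells. In 1 gate only Cxcr6 was 161 and 131 CPM, Cxcr3 66.0 and 105 CPM, Ccr6 62.5 CPM and Cxcr4 205 CPM. Ccr2 was lower in 1 gate only, at 118 CPM in CD8 T and 281 CPM in CD4 T cells. Barcodes in no gate held 43.2% of the Cxcr6, 44.5% of the Cxcr3 and 46.8% of the Ccr6 UMIs of this PEP-619WW library. Cx3cr1 had another order than in run 1: it was highest in monocytes or macrophages at 60.1 CPM, against 34.2 CPM in CD8 T cells, and in 1 gate only at 61.5 against 23.6 CPM.

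**Figure D5:**
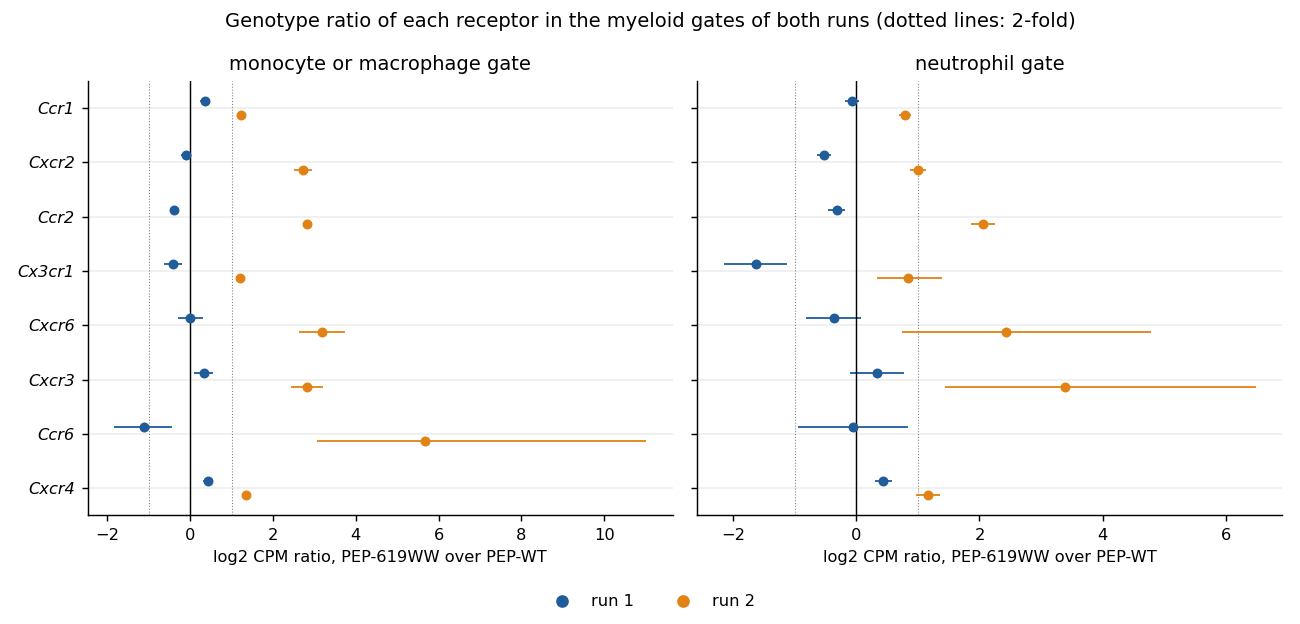
Log2 ratio of PEP-619WW over PEP-WT in run 1 and run 2 for each receptor in monocyte or macrophage and neutrophil barcodes, with exact 95% counting intervals. Run 2 points lie above 0 for every receptor shown, while the run 1 points lie below 0 for Ccr2, Cxcr2, Cx3cr1 and Ccr6 in both classes and for Ccr1 and Cxcr6 in neutrophils, with intervals that include 0 for Cxcr2 in monocytes or macrophages and for Ccr1, Ccr6 and Cxcr6 in neutrophils.

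Of the other chemokine receptors, 15 were listed and 6 to 12 had 20 UMIs in a class of run 1. None was at least 2-fold higher in PEP-619WW in any class of that run. At least 2-fold lower were 3 of 9 in CD8 T, 0 of 6 in CD4 T, 2 of 11 in B, 4 of 12 in plasma, 4 of 10 in monocyte or macrophage and 3 of 7 in neutrophil barcodes, beside 2.81%, 2.56%, 1.95%, 2.01%, 2.59% and 3.70% of all genes. They included Ccr7 and Cxcr5 in CD8 T barcodes, Ackr3 and Ackr4 in B cell barcodes and Ccr9 in neutrophil barcodes. The median log2 ratio of the other receptors was -0.51 in CD8 T, -0.08 in CD4 T and -0.42 in B barcodes. In plasma, monocyte or macrophage and neutrophil barcodes it was -0.47, -0.83 and -0.22. All list counts of this paragraph took every barcode of a gate, and none are given for 1 gate only. Of the run 1 neutrophil barcodes, 73.6% (PEP-WT) and 75.7% (PEP-619WW) met several gates. Of the CD8 T barcodes, 14.8% and 12.9% also met the B cell gate. The part of other cells in these counts was not tested. In run 2 the other receptors went the opposite way: 6 of 11 were at least 2-fold higher and 1 lower in monocytes or macrophages (median 1.49), Ccr7 and Cxcr5 among the higher, and 4 of 6 were higher in neutrophils (median 1.12), where 14.0% and 11.6% of all genes were higher. The T cell markers given above for these run 2 barcodes were higher too, whereas B cell markers were not higher in monocytes or macrophages. The part of lymphocytes was not tested. Among ligands of run 1, Pf4, a platelet chemokine, was at least 2-fold lower in all 6 classes, for example at 40.1 and 7.72 CPM in CD8 T barcodes, and the T cell ligand Ccl5 stood at 5771.4 and 7067.7 CPM there. Ligands at least 2-fold lower were 3 of 14 in CD8 T, 3 of 11 in CD4 T and 1 of 14 in B barcodes. In plasma, monocyte or macrophage and neutrophil barcodes they were 2 of 14, 3 of 16 and 3 of 15. In the same order of classes 0, 2, 1, 2, 2 and 1 were at least 2-fold higher, beside the shares of all genes given above. Of 17 matched genes for signal transducers and regulators of the receptors, run 1 class medians lay between -0.10 and 0.08, and those past 2-fold were Arrb1, higher in CD4 T barcodes, and Rgs18, lower in B and plasma cell barcodes.

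The genes most like each receptor over the 12 profiles of run 1 (6 classes by 2 genotypes, which share libraries, depth and barcodes) were found by Pearson correlation of log2(CPM + 1) among 12807 genes. For Cxcr2 they were Hdc (r = 0.998), Slfn4 and Csf3r, for Ccr1 Alox5 (0.996), Cd300lf and C5ar1, and for Cxcr6 Sytl2 (0.991), Epas1 and Ctsw. For Cx3cr1 they were Klrk1 (0.982), Adgrg5 and Itgax, and for Ccr2 Il15ra (0.967), Ctnna1 and Slc4a8. For Ccr6 they were Gm49085, Gm16152 and Cxcr5 (0.958), for Cxcr4 Tsc22d3 (0.938), Sgms1 and Tctn1, and for Cxcr3 Mms22l, G2e3 and Rab39b. By Spearman correlation 7 of these 24 genes were again among the 3 most like their receptor, and over the 7 profiles of run 2 it was 0 of 24, so the names hold for run 1 and this measure. In run 2 the likeness was 0.980 for Cxcr2 and Hdc, 0.978 for Cxcr6 and Sytl2 and 0.925 for Ccr1 and Alox5, but 0.485 for Cx3cr1 and Klrk1 and 0.58 for Ccr2 and Il15ra. Between receptors, Ccr1 and Cxcr2 were the closest pair in run 1 at 0.98 and stood at 0.90 in run 2, where Cxcr3 and Cxcr6 were closer at 0.98.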

How the data were processed

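The authors aligned 10x Genomics reads to mm10 with Cell Ranger (version 6.0.0 per the submitters' processing notes, whereas the study's methods name another release) and deposited 4 tables of raw UMI counts per gene and barcode, 1 per genotype in each of 2 runs that their file names mark. Filters before deposit are not given in the sources used here. From the deposited counts, UMIs were summed per gate, genotype and run and divided by all UMIs of the gate. Levels have exact Poisson and ratios exact conditional-binomial 95% intervals, and shares are of barcodes with at least 1 UMI. No doublet caller was run. Barcodes were thinned to 1000 UMIs, with shallower ones left out. A count past 2-fold needed 20 UMIs over both genotypes. Erythroid barcodes were in no gate and had at least 20% hemoglobin UMIs. The named genes are the 8 receptors, the 3 genes most like each by correlation, and members of the lists of other receptors, ligands, signal genes and cell type markers. The members and lists were chosen with earlier results of these data known. Alternatives were barcodes in 1 gate only, doubled gate thresholds, limits on genes, mitochondrial share or Mt2, thinning, leaving out immunoglobulin, hemoglobin, mitochondrial and S100a8/9 UMIs, another minimum of UMIs and a 1.5-fold limit. The stricter neutrophil class, the minimum of 50 barcodes per gate and the subsets of CD8 T and B cell barcodes were set after seeing the data, and some other subsets are not reported here. Promoter windows came from RefSeq and gene positions from the GRCm38 Gencode annotation. Scripts were tested on simulated data. The scripts ran under matplotlib 3.10.9, pandas 2.3.3, scipy 1.17.1, numpy 2.4.6 and Python 3.11.15.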

Additional observations from a re-analysis of the deposited data

Results flagged for a closer look

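The log2 ratio of Ccr2 (PEP-619WW over PEP-WT) in run 1 had opposite signs in the 2 T cell classes, 0.52 in CD8 T barcodes and -0.48 in CD4 T barcodes. The difference was not tested, because each class has 1 library per genotype. In barcodes of 1 gate only both were above 0, at 1.15 and 0.86, and the interval of the CD4 T value (-0.08 to 1.85) included 0.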

How the results depend on the processing

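No paired analysis was possible because each run holds 1 library per genotype and no result comes from a test. For the same reason no library could be left out. Limiting run 1 to barcodes in 1 gate only left 33 of 48 pairs with 20 UMIs, and among these turned 3 log2 ratios whose interval had excluded 0: Ccr2 in CD4 T cells to 0.86, Ccr1 in B cells to -0.15 and Cx3cr1 in monocytes or macrophages to 0.28. It also turned 3 whose interval had included 0, Cxcr2 in B cells (0.66), Cx3cr1 in B cells (-0.08) and Cxcr6 in neutrophils (0.45). The other 15 pairs were too low to compare. The same limit took the pairs at least 2-fold higher in PEP-619WW from 0 to 2 and those lower from 5 to 1, with 4 of the 5 lost to too few UMIs, and receptors with a leading class from 4 to 7 in PEP-WT and from 2 to 4 in PEP-619WW. Thinning to 1000 UMIs left 36 pairs, and gave 3 higher pairs (Cxcr6 in CD4 T and B cells, Cxcr3 in plasma cells) and 3 lower pairs (Ccr6 in B and plasma cells, Cx3cr1 in neutrophils), and a 1.5-fold limit gave 5 higher pairs. In PEP-619WW, doubled gate thresholds gave 4 receptors with a leading class and the limit of fewer than 10 Mt2 UMIs gave 1. The shares over all genes given above are not for thinning, the 1.5-fold limit, doubled thresholds or the Mt2 limit. Counts at those settings therefore have no background here and are not read as results about the receptors. No count of run 2 moved by over 1.5 times. The causes were not tested, and intervals cover counting error only, so the spread between mice or libraries is unknown.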

Other observations

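None of the 6 gates was set for natural killer cells, although some barcodes inside the gates carried natural killer markers. Barcodes of run 1 in no gate with at least 2 of 5 natural killer markers numbered 96 in PEP-WT and 39 in PEP-619WW. They held Ccr2 at 194 CPM (152 to 244) and 314 CPM (233 to 414), so the intervals overlapped. Cx3cr1 was 55.9 and 37.7 CPM, Cxcr3 50.6 and 50.3 CPM, Cxcr4 50.6 and 62.9 CPM and Cxcr6 42.6 and 12.6 CPM in these barcodes. The Cxcr6 values came from 16 and 2 UMIs, and their intervals (24.4 to 69.2 and 1.52 to 45.4 CPM) overlapped. Ccr1 had 0 UMIs in both libraries.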
